A study of Mus musculus with 6 samples.

Results

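The clustered protocadherins of the mouse lie in 3 neighbouring gene clusters, alpha, beta and gamma, on chromosome 18. Peaks of MBD2-bound DNA were taken from 3 windows of the mm9 genome, at 37070001 to 37370000 for alpha (300 kb), 37400001 to 37700000 for beta (300 kb) and 37800001 to 38020000 for gamma (220 kb). A peak belonged to a window when its midpoint lay inside it. The windows held 178 of the 164274 peaks in the 3 lists analysed, namely 78 of 85797 in stem cells, 64 of 50638 in common myeloid progenitors and 36 of 27839 in erythroblasts. By cluster, there were 50 alpha peaks, 57 beta peaks and 71 gamma peaks.

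Protocadherins are adhesion molecules of the cadherin superfamily, known best from the nervous system, where each neuron shows its own mixture of them at the surface and tells its own branches from those of other cells. In the alpha and gamma clusters a row of variable exons, each with its own promoter, is spliced to a shared set of constant exons at the end of the cluster. The beta genes have no such constant exons. In neurons, CpG methylation of a variable exon and its promoter goes with silence of that isoform. The RefSeq table names 14 genes of the alpha family (Pcdha1 to Pcdha12, Pcdhac1 and Pcdhac2), 22 of the beta family (Pcdhb1 to Pcdhb22) and 22 of the gamma family, of which 12 are Pcdhga, 7 Pcdhgb and 3 Pcdhgc genes. That table belongs to the assembly GRCm38 and not to mm9, so no peak was assigned to a gene, an exon or a promoter, and peaks are given by position alone.

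The study profiled DNA methylation in cells of C57BL/6 mice labelled female: hematopoietic stem cells (HSC), the myeloid progenitors descended from them (CMP, common myeloid progenitor) and erythroblasts (ERY), which still have a nucleus and mature into red cells. MBD2 binds methylated CpG sites, so a peak marks a stretch rich in methylated CpGs. HSC were sorted from adult bone marrow as lineage-negative, Sca-1-positive, c-kit-positive cells and CMP as lineage-negative, Sca-1-negative, c-kit-positive cells, and the sources used here do not say how ERY were obtained. Each cell type had 1 enriched library, and the 3 supernatant libraries were not analysed here. The gates can hold other progenitors, the lists carry no marker genes by which the labels could be checked, and whether cells of several animals were pooled is not given.

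With 1 library per cell type there is no replicate spread and no test between cell types or between clusters. The lists hold positions only, without heights, scores or read numbers, so the depth is unknown and an absent peak means that none was called at that list's own sensitivity. The rest of chromosome 18 held 2881 HSC, 1692 CMP and 924 ERY peaks. A peak was called kept when it shared at least 1 bp with a peak of the later list. Shares carry 95% exact binomial (Clopper-Pearson) intervals, which cover counting error only and take each peak as a separate draw. The comparisons of HSC with CMP and of HSC with ERY use the same HSC list.

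All 3 clusters were dense in peaks in HSC. The gamma window held 31 HSC peaks, or 141 per Mb, the beta window 27, or 90.0 per Mb, and the alpha window 20, or 66.7 per Mb. The rest of chromosome 18 held 33.2 HSC peaks per Mb, so the windows were 4.25, 2.71 and 2.01 times as dense. The gamma window is shorter than a tile, and densities are given per Mb for that reason. No one of 288 fixed 300 kb tiles of chromosome 18 outside the windows was denser in HSC peaks than gamma, whereas 14 were denser than beta and 39 denser than alpha. Among 8033 such tiles of the 19 autosomes, 90 were denser than gamma, 596 than beta and 1153 than alpha. The clusters were thus peak-rich places of the genome, and gamma was above the tiles of its own chromosome in each list. The tiles were not matched to the windows in CpG or gene content. The alpha density is over the whole window, of which the last 164 kb held no HSC peak.

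The order of the clusters differed between the lists. CMP had 26 gamma peaks (118 per Mb), 23 beta peaks (76.7 per Mb) and 15 alpha peaks (50 per Mb), the same order as in HSC. ERY had 14 gamma peaks (63.6 per Mb), 15 alpha peaks (50 per Mb) and 7 beta peaks (23.3 per Mb), so beta was last. Relative to the rest of chromosome 18, which held 19.5 CMP and 10.6 ERY peaks per Mb, alpha went from 2.01 times in HSC to 2.57 times in CMP and 4.70 times in ERY. Beta went from 2.71 times to 3.94 and then 2.19 times, and gamma from 4.25 times to 6.07 and 5.98 times.

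**Figure D1:**
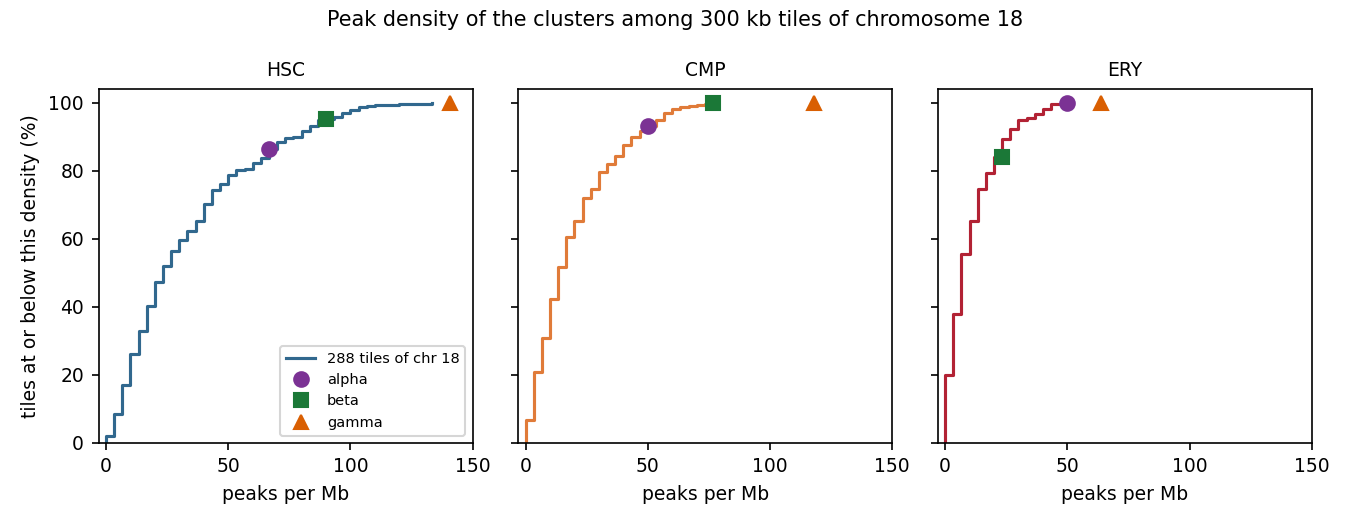
Peak density (peaks per Mb, x axis) of 288 tiles of 300 kb on chromosome 18 outside the windows, as the cumulative share of tiles at or below each density (y axis), for HSC, CMP and ERY, with the alpha (circle), beta (square) and gamma (triangle) windows marked. Gamma lies to the right of the tiles in each list, beta moves from 90.0 peaks per Mb in HSC to 23.3 in ERY, and alpha stays at 50 from CMP to ERY.

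Covered bases showed the same divergence. HSC peaks covered 27.2 kb of the alpha window, 30.2 kb of beta and 40.2 kb of gamma. CMP peaks covered 22.0, 22.6 and 32.3 kb. ERY peaks covered 16.4 kb of alpha, 5.91 kb of beta and 13.4 kb of gamma. CMP coverage was therefore 81.1% of that in HSC for alpha, 74.7% for beta and 80.4% for gamma, against 62.3% in the rest of chromosome 18. ERY coverage was 60.4% of that in HSC for alpha, 19.5% for beta and 33.3% for gamma, against 32.7% in the rest of the chromosome. The clusters were close to each other at the CMP stage and spread apart at the ERY stage.

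The peaks themselves were wide. In HSC the median width was 1491 bp in alpha (range 469 to 2047), 1077 bp in beta (398 to 2181) and 1173 bp in gamma (428 to 3315), against 734 bp in the rest of chromosome 18. At least 1 kb wide were 15 of 20 alpha peaks (75%, interval 50.9 to 91.3%), 18 of 27 beta peaks (66.7%, 46.0 to 83.5%) and 20 of 31 gamma peaks (64.5%, 45.4 to 80.8%), against 17.7% of the rest (16.3 to 19.1%). In CMP the medians were 1516 bp in alpha, 940 bp in beta and 1060 bp in gamma, against 804 bp in the rest. In ERY they were 1064, 827 and 816 bp, against 776.5 bp. The excess in width over the rest of the chromosome was larger in HSC than in ERY for all 3 clusters. The limit of 1 kb was chosen after the data were seen.

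From HSC to CMP the 3 clusters kept similar shares, with intervals that overlap each other. CMP kept 15 of 20 alpha peaks (75%, interval 50.9 to 91.3%), 22 of 27 beta peaks (81.5%, 61.9 to 93.7%) and 25 of 31 gamma peaks (80.6%, 62.5 to 92.5%). Together the clusters kept 62 of 78 (79.5%, 68.8 to 87.8%), and the rest of chromosome 18 kept 56.9% of 2881. The alpha interval reaches below the value of the rest, and the beta and gamma intervals lie above it. Among peaks at least 1 kb wide, 15 of 15 were kept in alpha, 17 of 18 in beta and 17 of 20 in gamma, against 81.5% of 509 in the rest. In alpha the limit of 1 kb fell between the absent peaks (up to 896 bp) and the kept ones (from 1072 bp). The limit was chosen after the data were seen, so the 15 of 15 followed from it. With the rest of the chromosome weighted to the widths of the clusters' peaks, its share was 70.7%, and the excess of the clusters went from 22.6 to 8.82 percentage points. That weighted share was 70.9% for beta and 70.3% for gamma, inside the intervals of both, and the pooled interval also includes 70.7%.

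From HSC to ERY the clusters separated. ERY kept 15 of 20 alpha peaks (75%, interval 50.9 to 91.3%), 14 of 31 gamma peaks (45.2%, 27.3 to 64.0%) and 6 of 27 beta peaks (22.2%, 8.62 to 42.3%), against 30.7% in the rest of chromosome 18. The intervals of alpha and beta do not overlap each other. The gamma interval overlaps both, and beta and gamma each include the value of the rest. No one of 116 tiles of chromosome 18 with at least 10 HSC peaks kept as large a share in ERY as alpha, the highest being 55.0%. Over the 19 autosomes the highest of 3204 such tiles was 72.7%. Gamma was exceeded by 17 of the 116 tiles and beta by 86. The tile shares count all peaks and were not matched to the clusters in peak width. At least 1 kb wide were 75% of alpha HSC peaks and 17.7% of those in the rest. The rest kept 52.5% of its HSC peaks of at least 1 kb in ERY, and 26.0% of its narrower ones.

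With the rest of the chromosome weighted to the widths of each cluster's peaks, alpha went from 44.3 to 32.2 percentage points above it, beta from -8.46 to -20.6 points from it, and gamma from 14.5 to 2.97 points above it. The weighted share was 42.8% beside alpha, below its interval, and 42.8% beside beta, just above the upper end of its interval (42.3%). Beside gamma it was 42.2%, inside the interval. Among HSC peaks at least 1 kb wide, ERY kept 15 of 15 in alpha (100%, interval 78.2 to 100%), 5 of 18 in beta (27.8%, 9.69 to 53.5%) and 9 of 20 in gamma (45.0%, 23.1 to 68.5%), against 52.5% of 509 in the rest. The alpha value again followed from the limit, which lay between absent peaks (up to 896 bp) and kept ones (from 1072 bp). Its interval does not cover that choice.

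From CMP to ERY the clusters also lay apart. ERY kept 15 of 15 CMP peaks in alpha (100%, interval 78.2 to 100%), 14 of 26 in gamma (53.8%, 33.4 to 73.4%) and 6 of 23 in beta (26.1%, 10.2 to 48.4%), against 50.7% in the rest of chromosome 18. The alpha interval lies above the rest and the beta interval below it. Of 59 tiles of chromosome 18 with at least 10 CMP peaks, 57 kept a larger share than beta, and no one kept as large a share as alpha. Over the 19 autosomes, 1604 of 1667 such tiles kept a larger share than beta. There 1665 kept less than alpha, and the highest also kept 100%. These tiles were not matched in peak width either. Among CMP peaks at least 1 kb wide, ERY kept 13 of 13 in alpha (interval 75.3 to 100%), 5 of 9 in beta (21.2 to 86.3%) and 11 of 15 in gamma (44.9 to 92.2%), against 80.4% in the rest, a value inside all 3 intervals. Weighted to the same widths, the rest of the chromosome kept 71.1% beside alpha, 60.4% beside beta and 65.0% beside gamma, so that gamma went from 3.14 points above the rest to -11.1 points from it.

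**Figure D2:**
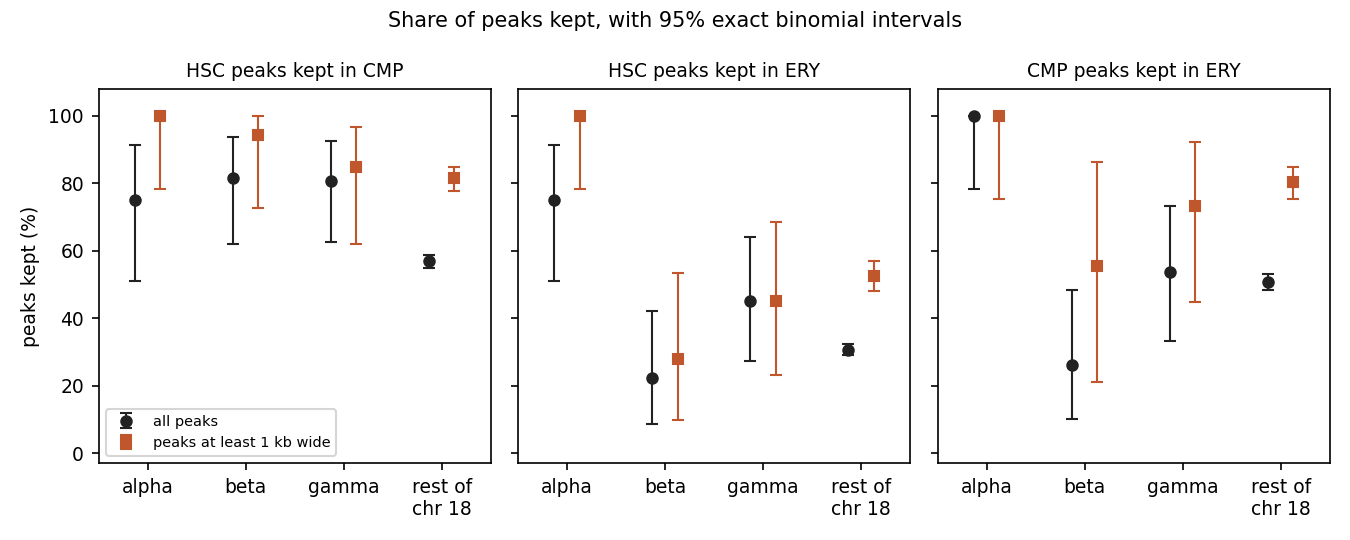
Share of peaks kept (%, y axis) from HSC to CMP, from HSC to ERY and from CMP to ERY in each cluster and in the rest of chromosome 18, for all peaks (circles) and peaks at least 1 kb wide (squares), with 95% exact binomial intervals as bars. The clusters lie between 75 and 81.5% for all HSC peaks in CMP, and between 22.2% (beta) and 75% (alpha) in ERY.

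Few peaks of the later lists lay outside the HSC list. All 15 CMP and all 15 ERY peaks of alpha overlapped an HSC peak, as did all 23 CMP peaks of beta and all 14 ERY peaks of gamma. In beta 6 of 7 ERY peaks did, and in gamma 24 of 26 CMP peaks did. In the rest of chromosome 18, 96.8% of CMP peaks and 96.4% of ERY peaks overlapped an HSC peak.

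Overlapping peaks of the 3 lists were merged into 79 regions, 19 in alpha, 28 in beta and 32 in gamma. The alpha regions fell into 2 classes, 14 with a peak in all 3 cell types and 5 with a peak in HSC only, and none had a peak in HSC and CMP without ERY (0 of 19, interval 0 to 17.6%). In beta 16 of 28 regions (57.1%, interval 37.2 to 75.5%) had a peak in HSC and CMP without ERY, 6 in all 3 and 5 in HSC only. In gamma 14 of 32 regions had a peak in all 3 (43.8%, 26.4 to 62.3%), 10 in HSC and CMP and 6 in HSC only. In the rest of chromosome 18, 28.5% of regions had a peak in all 3, 26.4% in HSC and CMP and 41.1% in HSC only. Regions in HSC only made up 26.3% of alpha (interval 9.15 to 51.2%), 17.9% of beta (6.06 to 36.9%) and 18.8% of gamma (7.21 to 36.4%). No region of the 79 had a peak in HSC and ERY without CMP, or in CMP and ERY without HSC (0 of 79 each, interval 0 to 4.56%), classes that held 1.12% and 0.102% of regions in the rest of the chromosome. In alpha every region without an ERY peak already lacked a CMP peak, whereas in beta most of them still had one.

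The alpha regions shared by all 3 lists formed a row. These 14 regions ran from 37090874 to 37182394, over 91.5 kb, with midpoints 5.01 to 9.44 kb apart (median 6.81 kb). Midpoints of all alpha HSC peaks were 1.32 to 24.5 kb apart (median 6.36 kb). Each shared region was between 1411 and 2603 bp long. The number of shared regions depends on the merging of overlapping peaks, since alpha held 15 CMP and 15 ERY peaks. It equals the number of alpha genes in the RefSeq table. This is no match of regions to genes, since positions on mm9 were not at hand for the genes. After the row the window was nearly empty: the last HSC peak, at 37205363 to 37205988 (626 bp), had no CMP or ERY peak, and from there to the window's end 164 kb held no HSC peak. The CMP and ERY lists had none over the last 188 kb of the window.

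Within alpha, width separated kept from absent peaks without overlap. The 15 HSC peaks with a CMP peak were 1072 to 2047 bp wide (median 1623 bp), and the same range held for the 15 with an ERY peak. The 5 absent from both later lists were 469 to 896 bp wide (median 626 bp). Most of them lay close to a shared region: merging peaks within 500 bp left 2 alpha regions in HSC only instead of 5, and allowing a gap of 500 bp raised the kept share to 85% in CMP and 90% in ERY. In the rest of chromosome 18 the ranges overlapped, with 323 to 4478 bp for HSC peaks kept in ERY and 281 to 2037 bp for those absent. Those groups held 884 and 1997 peaks, and full ranges of groups so large could hardly fail to overlap. The overlap therefore does not show the split by width to be particular to alpha. Kept peaks were wider there too, with medians of 841 and 697 bp. The widest alpha peak in HSC, at 37180152 to 37182198, was 2047 bp wide, with 1661 bp in CMP and 1413 bp in ERY. The next, at 37139402 to 37141410 (2009 bp), was covered by 2 CMP peaks with 1637 bp in sum and by 2 ERY peaks with 1651 bp in sum. The third, at 37120865 to 37122574 (1710 bp), had a CMP peak of 1608 bp and an ERY peak of 1161 bp. The widest peak of alpha in ERY, at 37134490 to 37136105 (1616 bp), was 1672 bp wide in HSC and 1963 bp in CMP, where it was also the widest. The second in ERY, at 37099912 to 37101440 (1529 bp), had 1623 bp in HSC and 1326 bp in CMP. The second in CMP, at 37170850 to 37172780 (1931 bp), overlapped 2 HSC peaks with 2570 bp in sum and an ERY peak of 936 bp. The widest alpha peak absent from both later lists was the first HSC peak of the window, at 37089774 to 37090669 (896 bp), just before the first shared region.

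The alpha row was the longest run of its kind on chromosome 18. Its 15 HSC peaks of at least 1 kb followed each other with no such peak absent from ERY between them, from 37090964 to 37182198. The longest run on chromosome 18 outside the windows had 11 peaks, among 135 runs. Over the whole HSC list 4 of 4011 runs had 15 peaks or more, alpha's included, and 1 was longer. In beta, the longest run of such peaks absent from ERY had 6 peaks, from 37582187 to 37647210, and 4 of 134 runs on chromosome 18 were longer. These runs were counted after the data were seen. The 1 kb limit lies between the widths of the kept and the absent alpha peaks, so no absent alpha peak could break the run.

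**Figure D3:**
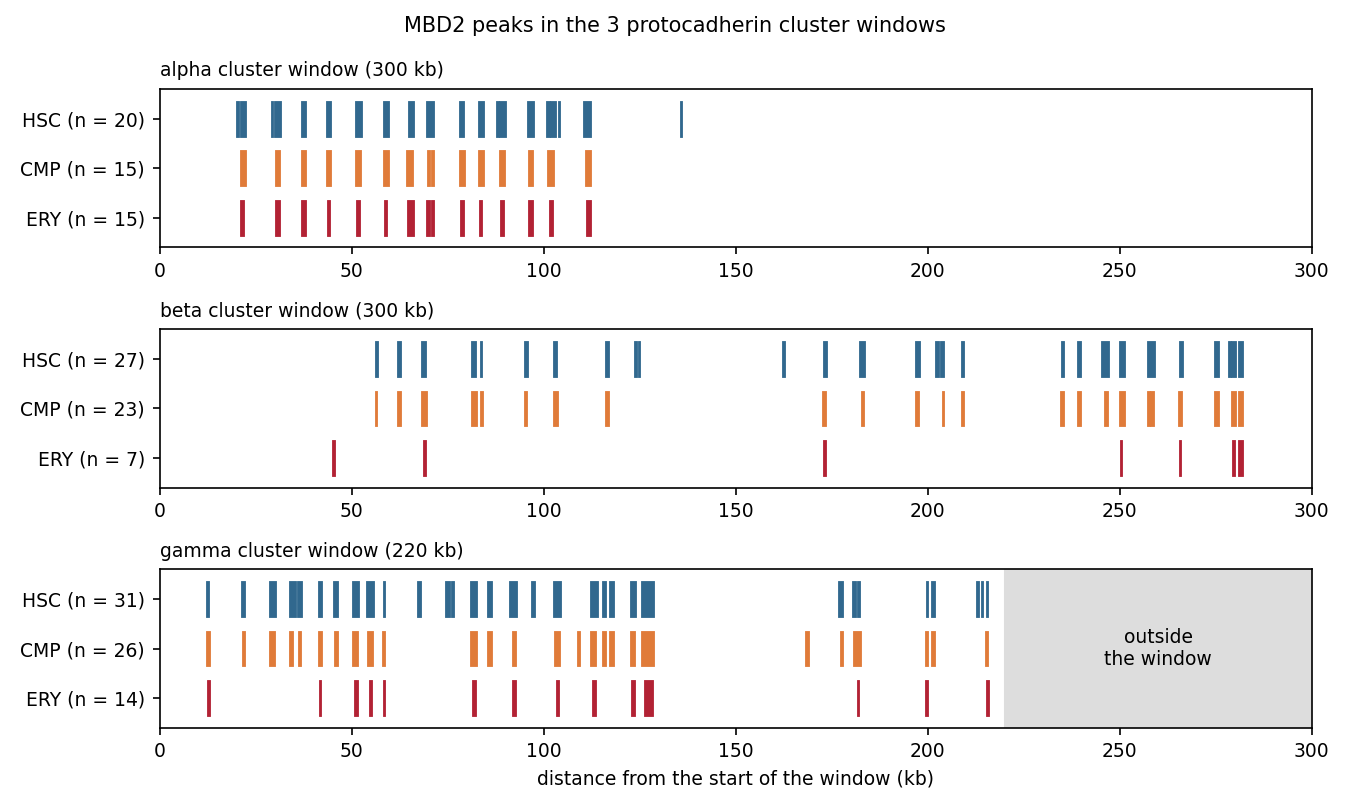
Peaks of the HSC, CMP and ERY lists (rows, with their number) in the alpha, beta and gamma windows, drawn to scale as bars from start to end, by distance from the start of the window (kb, x axis). The same 14 places are marked in all 3 lists in alpha, most beta places have bars in HSC and CMP and none in ERY, and gamma mixes both patterns.

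The beta cluster had peaks along most of its window, and ERY peaks at few of them. HSC peaks ran from 37455984 to 37682109, with midpoints a median of 7.16 kb apart and with 56.0 kb at the start of the window free of them. The longest inner stretch without an HSC peak was 37.0 kb, from 37524944 to 37561940. Before it, CMP kept 8 of 10 HSC peaks and ERY 1, and after it CMP kept 14 of 17 and ERY 5. The longest stretch of beta without a peak was 103 kb in ERY, from 37469340 to 37572618, where HSC and CMP had peaks. The 7 ERY peaks of beta were spread from 37444972 to 37682142, and 4 of them began at 37650098 or later.

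The widest beta peaks of HSC were among those without an ERY peak. The widest, at 37656990 to 37659170 (2181 bp), was covered by 2 CMP peaks with 1867 bp in sum and had none in ERY. The second, at 37645063 to 37647210 (2148 bp), had a CMP peak of 940 bp and none in ERY. The third, at 37467926 to 37469392 (1467 bp), had a CMP peak of 1409 bp, the second widest of beta in CMP, and an ERY peak of 827 bp. The widest in CMP, at 37649927 to 37651370 (1444 bp), was 1466 bp wide in HSC and 569 bp in ERY. In contrast to alpha, widths of kept and absent peaks overlapped. The 6 HSC peaks kept in ERY were 933 to 1467 bp wide (median 1162.5 bp), and the 21 absent ones 398 to 2181 bp (median 1066 bp). The widest HSC peak absent from CMP, at 37601832 to 37602959 (1128 bp), was also absent from ERY.

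The last beta peaks were an exception in ERY. The last HSC peak of the window, at 37680911 to 37682109, was 1199 bp wide, with 1080 bp in CMP and 1378 bp in ERY, and was the widest of beta in ERY. It was the single shared region of beta that covered more bases in ERY than in HSC. The second widest of ERY, at 37572619 to 37573490 (872 bp), had 1005 bp in HSC and 1049 bp in CMP. The first HSC peak, at 37455984 to 37456934 (951 bp), had a CMP peak of 723 bp and none in ERY. An ERY peak without an HSC or CMP peak lay before it, at 37444972 to 37445695 (724 bp), 1 of 28 beta regions in that class against 1.02% of regions in the rest of the chromosome.

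The gamma cluster fell into a long part and a short distal part, with a stretch free of HSC peaks between them. Up to 37928669 there were 23 HSC peaks, of which CMP kept 19 and ERY 11. Then 48.1 kb held no HSC peak, and 8 HSC peaks followed, of which CMP kept 6 and ERY 3. Neighbouring HSC midpoints were a median of 5.21 kb apart, neighbouring ERY midpoints 10.5 kb. Places with an ERY peak were interspersed with places that had a peak in HSC and CMP only, as the map of peaks shows.

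The gamma cluster held the widest peak of the 3 clusters in every list. It lay at 37925355 to 37928669 in HSC (3315 bp), with 3205 bp in CMP and 2431 bp in ERY, at the end of the long part. The second widest in HSC, at 37902340 to 37904547 (2208 bp), had 1648 bp in CMP and 679 bp in ERY. The third, at 37911999 to 37914062 (2064 bp), had 1752 bp in CMP and 871 bp in ERY. These 3 had a peak in each list, with ERY the narrowest each time. The second widest in ERY, at 37891746 to 37892878 (1133 bp), had 1919 bp in HSC and 1073 bp in CMP. The second in CMP, at 37980557 to 37982545 (1989 bp), overlapped 2 HSC peaks with 1718 bp in sum and an ERY peak of 761 bp. The widest HSC peak absent from ERY, at 37828436 to 37830383 (1948 bp), had a CMP peak of 1552 bp. The widest absent from CMP, at 37874358 to 37875530 (1173 bp), was absent from ERY as well. The 14 HSC peaks kept in ERY were 428 to 3315 bp wide (median 1577.5 bp) and the 17 absent ones 466 to 1948 bp (median 1157 bp), so the ranges overlapped.

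Both gamma regions without an HSC peak were in CMP only, at 37967999 to 37968962 (964 bp) and 37908597 to 37909487 (891 bp). They were 2 of 32 gamma regions, against 1.73% of regions in the rest of the chromosome. The first HSC peak of gamma, at 37812174 to 37812838, was 665 bp wide, with 1047 bp in CMP and 687 bp in ERY. The last, at 38015265 to 38015731, was 467 bp wide, with 752 bp in CMP and 871 bp in ERY.

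Within regions called in all 3 cell types, ERY covered fewer bases than HSC in most cases. In alpha it did so in 14 of 14 regions, with a median ratio of ERY to HSC of 0.685 (range 0.364 to 0.967). The median covered length there was 1630.5 bp for HSC, 1540.5 bp for CMP and 1139.5 bp for ERY. In beta ERY covered fewer bases in 5 of 6 regions, with a median ratio of 0.747, and in gamma in 10 of 14, with a median ratio of 0.616. In the rest of chromosome 18 it did so in 64.3% of 840 regions, with a median ratio of 0.901. The regions there were smaller in HSC, with a median of 867 bp covered, against 1162.5 bp in beta and 1728 bp in gamma. Their median in ERY was 786 bp, against 834 bp in beta and 816 bp in gamma. The ratios were not weighted to width, so they do not separate the clusters from regions of like size elsewhere. The median ratio of CMP to HSC was 0.947 in alpha, 0.984 in beta and 0.990 in gamma, against 0.994 in the rest.

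**Figure D4:**
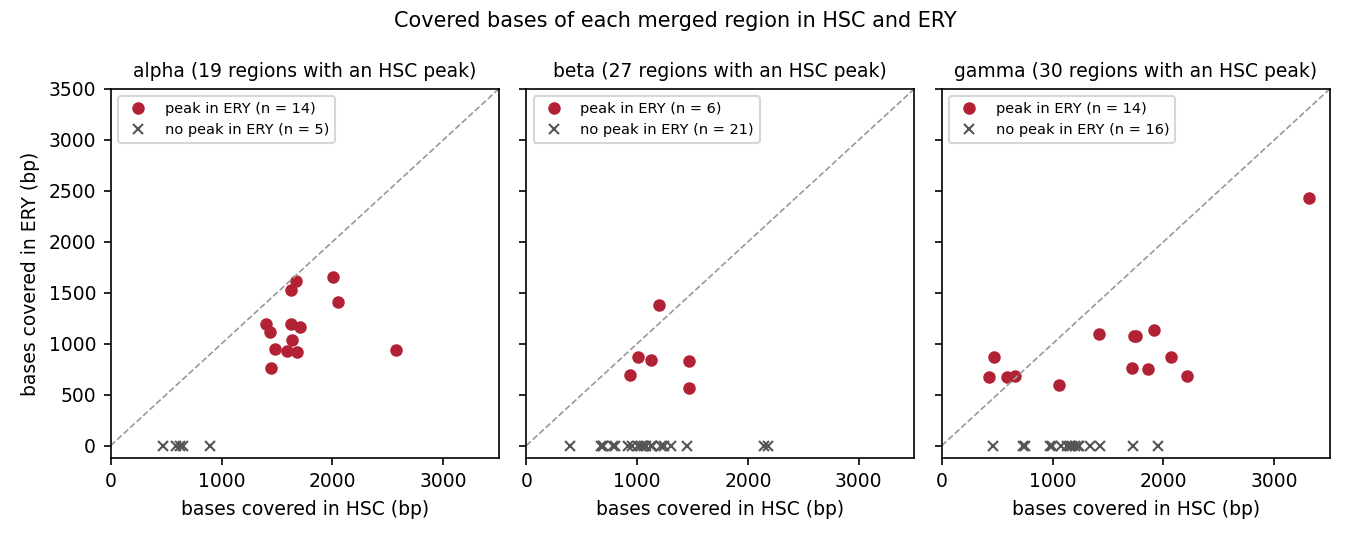
Bases covered in HSC (bp, x axis) and in ERY (bp, y axis) for each merged region with an HSC peak in alpha (19 regions), beta (27) and gamma (30); circles have an ERY peak, crosses at 0 have none, and the dashed line marks equal coverage. All alpha circles lie under the line, 1 beta circle and 4 gamma circles lie above it, and the beta crosses reach the widest HSC regions of that cluster.

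The 4 gamma regions with more covered bases in ERY than in HSC were small in HSC, at 665 bp or less. They include the first and the last HSC peak of the window.

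The stretches around the clusters were sparser than gamma. Per Mb they held 70 HSC peaks before alpha, 66.7 between alpha and beta, 50 between beta and gamma and 40 after gamma. The alpha window held 66.7 HSC peaks per Mb, no more than the stretches beside it. That value is over the whole window: its 20 HSC peaks lay within 116 kb, and its last 164 kb held none. In ERY the alpha window held 50 peaks per Mb, against 10 before it and 33.3 after it. Between the alpha and beta windows 30 kb held 2 HSC peaks, of which CMP and ERY each kept 1. Between the beta and gamma windows 100 kb held 5 HSC peaks, of which CMP kept 4 and ERY 3. The 100 kb before the alpha window held 7 HSC peaks, of which CMP kept 7 and ERY 1, and the 100 kb after the gamma window held 4, of which neither kept any. The windows' edges fell mostly into gaps. The HSC peaks nearest to the alpha window lay outside it at 37050143 to 37050951 (809 bp) and 37387745 to 37388562 (818 bp), both with a peak in all 3 lists. The nearest before and after the beta window were at 37396258 to 37396860 (603 bp), in HSC alone, and at 37712494 to 37713414 (921 bp), in all 3. The nearest before gamma, at 37797807 to 37798972 (1166 bp), was in all 3. The nearest after it, at 38019588 to 38020430 (843 bp), crossed the window's edge with its midpoint just outside and was in HSC alone.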

How the data were processed

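Per the labels' protocols, 36 bp single-end reads that could be placed uniquely defined the MBD2-bound part of the genome, and the submitters' processing notes name mm9 as the build. The authors deposited 1 list of peaks per enriched library, with chromosome, start and end only, and per the file headers each is the output of a table browser. The sources used here give no aligner, peak caller, threshold or control, and repeats, ease of mapping or CpG content were not examined. The windows, named peaks and comparisons were chosen with earlier results of these data known. Peaks were named by a rule: in each cluster the 3 widest of HSC, the 2 widest of CMP and of ERY, the widest HSC peaks absent from CMP and from ERY, the first and last HSC peak, the longest stretch without one, regions without an HSC peak, and the peaks nearest to each edge. Coordinates are 1-based. The rest of chromosome 18 is the span of its peaks outside the windows, and tiles are fixed at multiples of 300 kb. For the weighting by width, peaks fell into 4 classes cut at the quartiles of chromosome 18. The widest class had no upper limit, and widths inside a class were not matched. Alternatives covered the overlap rule, window edges, membership, the wider 50% of each list, background, width, merging and 1 kb bins. Python 3.11.15, numpy 2.4.6, pandas 2.3.3, scipy 1.17.1 and matplotlib 3.10.9 were used. Overlap counts were tested on simulated data and gave the same numbers as bedtools 2.31.1. No DNA sequence is shown.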

Additional observations from a re-analysis of the deposited data

How the results depend on the processing

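No paired analysis was possible because each cell type has 1 library. Of 276 values under an alternative, 237 stayed inside their interval (shares) or within 1.5 times (densities, widths and counts), 37 moved and 2 changed sign. Moving the window edges by 20 kb or counting any overlap with a window moved no value by this rule. Nor did requiring 50% of the peak to be covered, or taking as background all autosomes or only peaks with another within 5 kb. The clusters' intervals are wide, so shares could shift inside them. Requiring 50% covered took gamma from 45.2 to 35.5% of HSC peaks kept in ERY, and windows lengthened by 20 kb took beta from 22.2 to 29.0%. Weighting the background to the clusters' widths changed sign for CMP peaks kept in ERY, to -11.1 points for gamma and -10.1 for the clusters together, and brought the clusters together to 8.82 (HSC to CMP) and 2.32 points (HSC to ERY). Leaving out a cluster mattered for the pooled share, which for HSC to ERY was 56.9% without beta, and for CMP to ERY 40.8% without alpha and 70.7% without beta. In the rest of chromosome 18, requiring 50% of both peaks gave 53.6% kept in CMP and 28.7% in ERY, and allowing 500 bp gave 58.9% in CMP. With the wider 50% of each list, alpha kept 93.8% in CMP and gamma 24.0% in ERY (30.0% of its CMP peaks), while the rest kept 41.5% in CMP, 23.4% in ERY and 39.1% of CMP peaks in ERY. That cut drops narrow peaks by construction, leaving 13.3 ERY peaks per Mb (1.31% covered) in beta, 31.8 (3.89%) in gamma, and 16.0 HSC (1.62%), 9.15 CMP (0.951%) and 5.09 ERY (0.505%) in the rest. It left 1 alpha region in HSC only, 1 in HSC and CMP, and 6 gamma regions in all 3. Merging within 500 bp left 2 HSC-only regions in alpha and 2 in beta. In 1 kb bins, which split wide regions, HSC and CMP without ERY held 6 bins in alpha, 33 in beta and 26 in gamma, all 3 lists held 33, 10 and 24, and HSC alone held 13 in beta and 15 in gamma. The cause of the other shifts was not tested. With unknown depth, the sensitivity of each list limits every absent peak.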
